A study of Mus musculus with 10 samples.

Results

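The expression of 8 genes of the islet's non-β endocrine cells, out of 47340 genes in the deposited table, was followed in islets of mice that lack FIT2 in β cells. They were taken by symbol: *Irx1*, *Irx2* and *Ttr* for α cells, *Sst* and *Hhex* for δ cells, *Ppy* and *Pyy* for PP cells, and *Ghrl* for ε cells. All 8 were found once in the table, all 8 passed the filter on low values, and none was listed at 0 in any mouse.

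The islet of Langerhans holds several endocrine cell types beside the insulin-secreting β cell. α cells secrete glucagon, which raises blood glucose; δ cells secrete somatostatin, which restrains neighbouring α and β cells at short range; PP cells secrete pancreatic polypeptide, and the scarce ε cells secrete ghrelin. Peptide YY, a relative of pancreatic polypeptide, is made in PP cells and also in part of the other islet cells of the mouse. Each hormone gene is used by its own cell type at a very high level, and transcription factors such as Irx1 and Irx2 in α cells and Hhex in δ cells are restricted to a few of these types, so that the RNA of whole islets carries a trace of each cell type.

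Islets came from 12-wk-old male, chow-fed mice of 2 groups with 5 mice each. βFIT2KO mice (KO) carry floxed *Fitm2* alleles and Cre recombinase under the rat insulin II promoter (RIP-Cre), and the floxed control mice (FL) carry the floxed alleles without Cre; the labels give the FL genotype as wild type and title these samples as floxed. Islets of mice with RIP-Cre alone were not analysed here, so that the deletion and the presence of Cre cannot be told apart. The islets rested overnight in culture medium, and 1 polyA library was made per mouse. The deletion is driven in β cells, and the 8 genes are read in a mixture of all islet cells: fewer cells of a type and less RNA per cell cannot be told apart in such samples.

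*Fitm2* itself was at 15.5 to 37.1 FPKM (fragments normalised for transcript length and for the mapped fragments of the library) in FL and at 4.30 to 9.13 in KO, with no overlap. Summed FPKM ran from 646233 to 675470 in FL and from 627084 to 653292 in KO. The total reads per library were not given with the table; the size of the step that 1 read makes among low values put the depth of the libraries at 1 to 2.41 times that of FL 1. *Ins1*, *Ins2*, *Gcg* and *Iapp*, the most abundant hormone genes of an islet, were listed at 0 in all 10 libraries, which can be a failed estimate of very high values. Glucagon, the defining α cell product, could therefore not be read here.

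Promoter sequences from RefSeq (GRCm38.p6) were at hand for 6 of the 8 genes. The sequences of *Sst* are shown because it was one of the genes that fell, and those of *Ppy* and *Pyy* because these relatives lie 5.36 kb apart on chromosome 11. The 250 bases before each RefSeq start were searched on both strands for TGACGTCA (the cAMP response element that *Sst* is known for), TAAT (the core bound by homeodomain factors) and TATAAA (the TATA box), and matches are in capitals. Sequences run 5′ to 3′ on the strand of the gene, which is the minus strand for all 3.
Sst, chr16:23890874-23890903: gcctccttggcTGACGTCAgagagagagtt
Sst, chr16:23890923-23890952: gattttgcgaggcTAATggtgcgtaaaagc
Ppy, chr11:102101320-102101439: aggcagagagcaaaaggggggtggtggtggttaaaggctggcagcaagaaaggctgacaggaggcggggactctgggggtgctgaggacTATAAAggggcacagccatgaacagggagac
Pyy, chr11:102107833-102107952: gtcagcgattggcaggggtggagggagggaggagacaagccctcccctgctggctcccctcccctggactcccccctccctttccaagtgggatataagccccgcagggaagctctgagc

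The response element of *Sst* began at -48 and its TAAT at -95 from the RefSeq start, both inside the longer gene span of the GENCODE annotation. TGACGTCA was present in 1.60% of the 27025 mouse promoters searched in the same way, TATAAA in 13.0% and TAAT in 55.4%. *Ppy* had a TATAAA at -31, whereas none of the 3 motifs was found before *Pyy*, *Hhex*, *Irx2* or *Ghrl*. These matches describe letters in a window and say nothing of binding.

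Of the 8 genes, 3 (*Irx1*, *Ttr* and *Sst*) were lower in KO islets and none was higher, neither by limma, where none rose at an unadjusted p of under 0.05, nor by the exact permutation test. The main test was limma on log2(FPKM + 1), run across all 13065 genes whose mean reached 1 FPKM in FL or KO, with a gene called at a Benjamini-Hochberg adjusted p of at most 0.05; fold changes are on this log2 scale and understate the change of low genes. Over all tested genes, 16.5% were called lower (2150) and 9.05% higher (1183), which is 25.5% together, and 3 of 8 genes are too few to be read as particular against that background. This split depended on the scaling: after the libraries were rescaled by their median ratio, 1516 genes were lower and 1625 higher, and of the 8 genes only *Ttr* was called. The median log2 fold change was -0.15 over the 8 genes and -0.06 over all tested genes. In mean FPKM, *Sst* dropped by 17.8%, *Irx1* dropped by 23.5% and *Ttr* dropped by 31.8%. None of the 3 falls reached 1.5-fold, a size that 4.89% of all tested genes passed together with the adjusted p, and none of the 8 genes had every KO mouse above the FL range, as 6.67% of all tested genes did. In the exact two-sided permutation test, *Ttr* reached 0.00794, the smallest p that 5 against 5 mice allow.

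**Figure D1:**
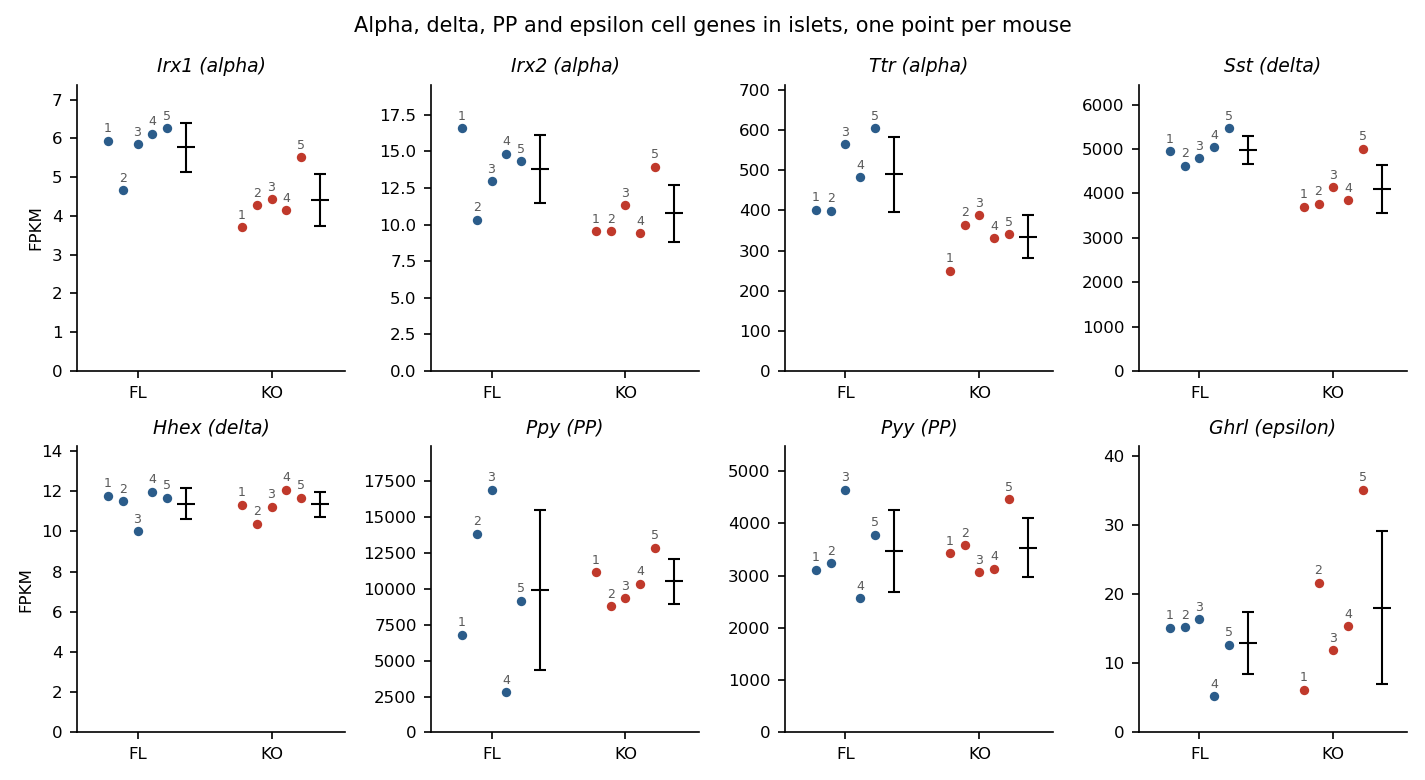
FPKM (y axis, from 0) of the 8 genes in each FL (blue) and KO (red) mouse, numbered as in the text, with the mean and SD (n = 5) in black. *Ttr* has no overlap between groups, *Irx1* and *Sst* have 4 KO mice below every FL mouse, and *Ppy* spreads over 6.02-fold among the FL mice.

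Of the 3 α cell genes among the 8, *Ttr* had the largest change. *Ttr* encodes transthyretin, a carrier of thyroid hormone and of retinol-binding protein that is abundant in α cells. RNA of whole islets does not show which cells its transcripts came from, so its change is not read as one of α cells. It was at 401, 400, 565, 482 and 605 FPKM in FL 1 to 5 and at 250, 364.5, 389, 331 and 340 FPKM in KO 1 to 5. No KO mouse reached the lowest FL mouse, which held for 12.5% of all tested genes. The means were 491 ± 93.3 FPKM in FL and 335 ± 52.7 in KO (SD, n = 5). On the log2 scale the fold change was -0.54 (SE 0.14, 95% interval -0.86 to -0.23, limma adjusted p = 0.0190). Leaving out any single mouse kept the call, with adjusted p between 0.0158 and 0.0482. Leaving out FL 4 and KO 5 together, the mice with the lowest FL and the highest KO content of exocrine transcripts, gave -0.56 with adjusted p = 0.0614.

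*Irx1* and *Irx2* are homeobox genes of the Iroquois family that lie 665 kb apart on chromosome 13 and mark α cells in the mouse islet. *Irx1* was at 5.94, 4.67, 5.85, 6.12 and 6.26 FPKM in FL 1 to 5 and at 3.71, 4.28, 4.43, 4.14 and 5.51 FPKM in KO 1 to 5. All KO mice but KO 5 were below the lowest FL mouse, FL 2. The log2 fold change was -0.33 (SE 0.095, exact permutation p = 0.0159, or 0.0642 when adjusted over all tested genes, and limma adjusted p = 0.0290). This call was narrow: without FL 1, 3, 4 or 5 or without KO 1, 2 or 4 the adjusted p rose to between 0.0511 and 0.0693, with fold changes between -0.28 and -0.32, and without KO 5 it was 0.00839. Rescaling the libraries by the median ratio moved the fold change to -0.27 and the adjusted p to 0.0727.

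*Irx2* had nearly the same fold change with a wider spread. Its level was 16.6, 10.3, 13.0, 14.8 and 14.3 FPKM in FL 1 to 5 and 9.56, 9.55, 11.3, 9.40 and 14.0 FPKM in KO 1 to 5. Only 3 KO mice were below the lowest FL mouse, and KO 5 was within the FL range. The log2 fold change of -0.33 (SE 0.13, 95% interval -0.62 to -0.05) had a limma adjusted p of 0.0857. The call was reached without FL 2 (-0.43, adjusted p = 0.0263) or without KO 5 (-0.42, adjusted p = 0.0284). The changes of *Irx1* and *Irx2* differed by 0.01 on the log2 scale (exact permutation p = 0.897), with a *Irx1* to *Irx2* difference of -1.12 ± 0.136 in FL and -1.11 ± 0.0966 in KO (SD, n = 5).

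The change of *Ttr* was larger than those of *Irx1* and *Irx2*, but the differences did not pass the exact permutation test. The scale enters them, as it understates the change of low genes. With a pseudocount of 0.01 the changes were -0.39 for *Irx1*, -0.36 for *Irx2* and -0.55 for *Ttr*. The differences below are on the log2(FPKM + 1) scale. The fold change of *Irx1* was 0.22 above that of *Ttr* (exact permutation p = 0.135, adjusted over 5 pairs of genes 0.337), and that of *Irx2* was 0.21 above it (p = 0.302, adjusted 0.503).

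Of the δ cell genes, the hormone fell and the transcription factor did not pass the test. *Sst* encodes somatostatin, and was at 4952, 4624, 4792, 5047 and 5467 FPKM in FL 1 to 5 and at 3701, 3771, 4141, 3840 and 5004 FPKM in KO 1 to 5. As with *Irx1*, 4 KO mice were below every FL mouse and KO 5 was within the FL range. The means were 4976 ± 318 FPKM in FL and 4091 ± 537 in KO (SD, n = 5). The log2 fold change was -0.29 (SE 0.086, limma adjusted p = 0.0303, exact permutation p = 0.0317). The adjusted p rose to between 0.0507 and 0.0763 without FL 1, 3, 4 or 5 or without KO 1, 2 or 4, with fold changes between -0.25 and -0.30, and it was 0.00305 without KO 5 (-0.36). Under median-ratio rescaling the fold change was -0.23 and the adjusted p 0.111. Quantile normalization, which gives the few highest genes of each library nearly the same values by construction, brought it to -0.035.

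*Hhex* encodes the homeodomain factor that keeps δ cell identity. It was at 11.8, 11.5, 10.02, 12.0 and 11.7 FPKM in FL 1 to 5 and at 11.3, 10.4, 11.2, 12.1 and 11.7 FPKM in KO 1 to 5. The groups overlapped throughout, and *Hhex* varied least within the KO group and next to least within the FL group of the 8 genes, with a coefficient of variation of 6.90% in FL and 5.54% in KO. Its log2 fold change was -0.0045 with a 95% interval of -0.13 to 0.12 (limma adjusted p = 0.965), which leaves room for changes of this size in either direction. The change of *Sst* was 0.28 below that of *Hhex* (exact permutation p = 0.0317), and this difference did not pass after adjustment over the 5 pairs (0.159).

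The PP cell hormones were among the most abundant transcripts listed and did not pass the test. *Ppy*, which encodes pancreatic polypeptide, was at 6809, 13852, 16923, 2811 and 9185 FPKM in FL 1 to 5 and at 11184, 8815, 9374, 10377 and 12871 FPKM in KO 1 to 5. The FL mice covered a 6.02-fold range with a coefficient of variation of 56.4%, the KO mice a 1.46-fold range with 15.2%, and all KO values lay inside the FL range. The log2 fold change was 0.32 (SE 0.40, 95% interval -0.57 to 1.20, limma adjusted p = 0.603). FL 4 alone set its sign: without that mouse it was -0.077.

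*Pyy*, which encodes peptide YY, was at 3114, 3243, 4643, 2564 and 3781 FPKM in FL 1 to 5 and at 3423, 3580, 3062, 3131 and 4466 FPKM in KO 1 to 5. Its groups overlapped throughout, with KO 5 the highest KO mouse and FL 4 the lowest of all 10. Its log2 fold change was 0.04 (SE 0.15, 95% interval -0.30 to 0.38, limma adjusted p = 0.870). The fold changes of *Ppy* and *Pyy* differed by 0.28 (exact permutation p = 0.532).

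*Ghrl* encodes the precursor of ghrelin, the hormone of ε cells. It was at 15.1, 15.2, 16.4, 5.28 and 12.7 FPKM in FL 1 to 5 and at 6.20, 21.6, 11.9, 15.3 and 35.1 FPKM in KO 1 to 5. The low values of FL 4 and KO 1 and the high value of KO 5 stretched both groups, and 2 KO mice were above every FL mouse. The log2 fold change was 0.33 (SE 0.41, 95% interval -0.57 to 1.23, limma adjusted p = 0.593). It was 0.065 without FL 4, 0.050 without KO 5 and -0.22 without both.

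The exocrine content of the islet preparations differed between the same mice. The summed FPKM of the 11 acinar genes listed was 4785 to 12800 in FL, lowest in FL 4, and 3188 to 23708 in KO, highest in KO 5; in KO 5 it was 3.70% of all FPKM and in FL 4 0.708%. After the group means were removed, the acinar sum and *Ghrl* had a Pearson r of 0.60 over the 10 mice (Spearman 0.37, and r = 0.67 without FL 4 and KO 1). The r with the acinar sum was 0.45 for *Ppy* (Spearman 0.50), 0.45 for *Sst* (0.13) and 0.44 for *Pyy* (0.26). For the other genes it ran from -0.32 (*Ttr*) to 0.31 (*Hhex*). With the acinar sum as a covariate, the log2 fold change of *Ghrl* was 0.50 (limma adjusted p = 0.322), that of *Sst* -0.27 (0.0332), that of *Ttr* -0.58 (0.0159) and that of *Irx1* -0.31 (0.0382). In the same fit *Irx2* was at -0.31 (0.111), *Hhex* at 0.0053 (0.956), *Ppy* at 0.44 (0.424) and *Pyy* at 0.086 (0.693). *Gm26982*, which overlaps *Ghrl* on the other strand, was at 1.42 to 2.36 FPKM, and whether the counting used strand was not given in the sources used here. *Gm44033*, a further gene on that strand, shares 75 stretches of read length with *Ghrl* and was at 0 to 0.308 FPKM. For the other 7 genes no stretch of read length was shared with another annotated gene.

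**Figure D2:**
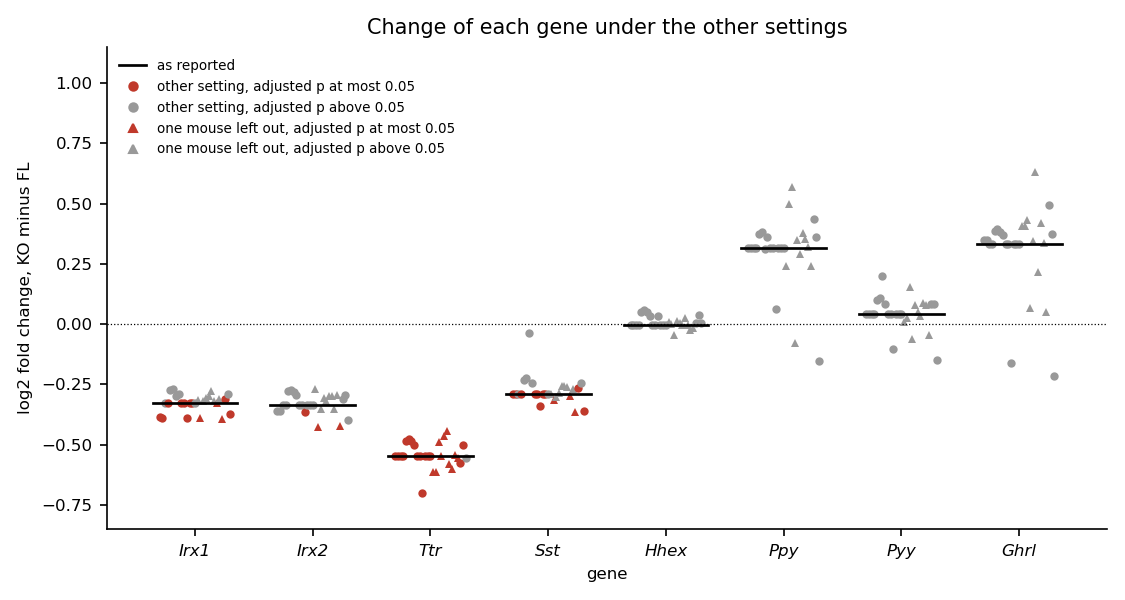
Log2 fold change (y axis, KO minus FL) of each gene as reported (black line) and under 27 other settings (points; triangles leave out a single mouse), in red where the adjusted p was at most 0.05. *Ttr* stayed between -0.70 and -0.44, whereas *Ghrl*, *Ppy*, *Pyy* and *Hhex* had values on both sides of 0.

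The hormones *Ppy*, *Sst* and *Pyy* were among the most abundant transcripts tested, and the regulators were in the lower part of the tested genes, with 26.5% of them below *Irx1*, 44.7% below *Hhex* and 46.9% below *Irx2*. On the FPKM scale, which is per length, *Ppy* had the 3rd, *Sst* the 5th, *Pyy* the 8th and *Ttr* the 172nd highest mean level of the 13065 tested genes, among which *Ins1*, *Ins2*, *Gcg* and *Iapp* do not figure because they were listed at 0. *Ppy* was above *Sst* in 9 of 10 mice, FL 4 being the exception, and *Sst* was above *Pyy* and *Pyy* above *Ttr* in all 10. The regulators and ghrelin followed far below. *Ghrl* (mean 15.5 FPKM) was above *Irx2* (12.3) in 6 of 10 mice, and *Irx2* was above *Hhex* (11.4) in 6 of 10, so that these 3 neighbours did not separate. *Irx1* (5.09) was below *Hhex* in all 10. About 298 to 758 reads stood behind each value of *Irx1* and 139 to 1365 behind each value of *Ghrl*, as estimated from the step of 1 read, against at least 75591 for *Sst*.

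The 8 genes also varied between mice of the same genotype. Of the 28 pairs of the 8 genes, 4 had a Pearson r of at least 0.7 over the 10 mice after group means were removed. These were *Irx1* with *Irx2* (0.88, Spearman 0.85), *Irx1* with *Sst* (0.88, Spearman 0.87), *Irx2* with *Sst* (0.80, Spearman 0.77) and *Ppy* with *Pyy* (0.76, Spearman 0.72). FL 2 was low and KO 5 high for the first 3 genes. Leaving out the 2 mice farthest from the median left r at 0.67 for *Irx1* with *Irx2*, at 0.84 for *Irx1* with *Sst* and at 0.68 for *Irx2* with *Sst*. For *Ppy* with *Pyy*, leaving out FL 3 and FL 4 left 0.32, so that the r over all 10 mice depended on them. Within the KO mice alone it was 0.68. Under quantile normalization r was 0.16 for *Irx1* with *Sst*, 0.066 for *Irx2* with *Sst*, 0.34 for *Ppy* with *Pyy* and 0.89 for *Irx1* with *Irx2*. That scaling gives the few highest genes, among them *Sst*, *Ppy* and *Pyy*, nearly the same values by construction. The r of pairs with these genes was bound to change, so it is no check of them. These correlations are descriptions: the genes of a mouse share a library, its depth and its mixture of cells.

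KO 5 had the highest KO value for 6 of the 8 genes, all but *Ttr* and *Hhex*, as well as the highest acinar sum. *Ttr* did not follow the Iroquois pair closely (r = 0.56 with *Irx1* and 0.22 with *Irx2*), and *Hhex* did not follow *Sst* (r = 0.32).

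**Figure D3:**
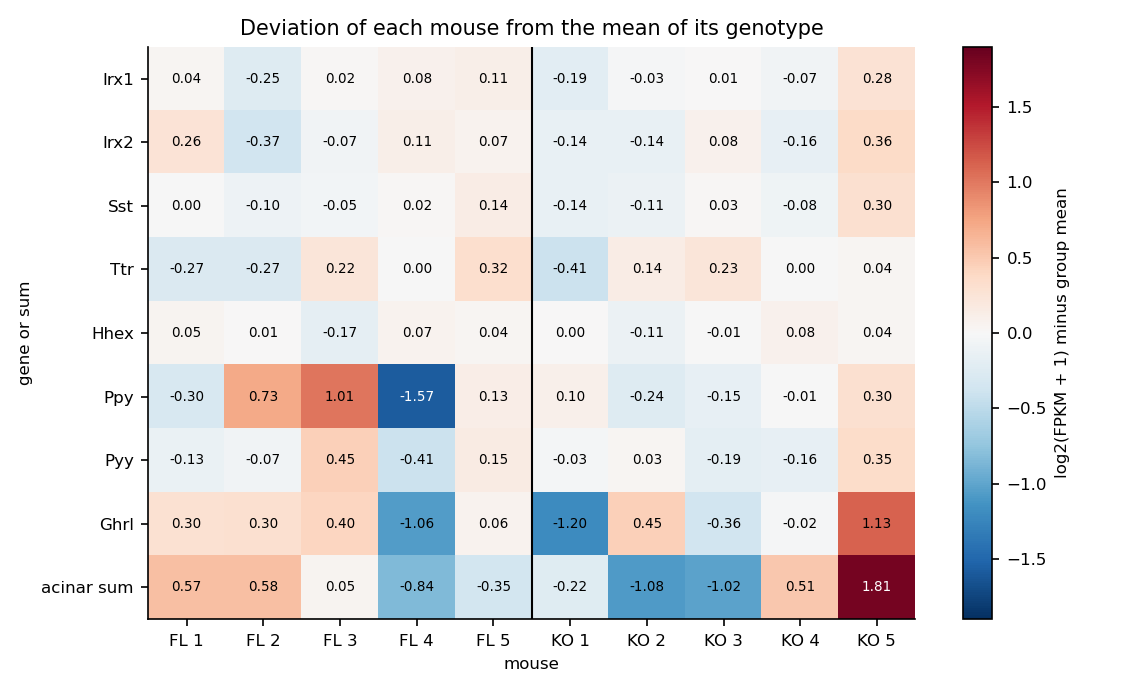
Deviation of each mouse (columns) from the mean of its genotype on the log2(FPKM + 1) scale for the 8 genes and the acinar sum (rows), in red above and in blue below the mean. KO 5 is above its group mean in every row, and FL 4 is the lowest FL mouse for *Ppy* at -1.57 and for *Ghrl* at -1.06.

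Among the 13064 other tested genes, the 3 most like each of the 8 were taken by the same Pearson r over 10 mice. *Irx2* was matched most closely, by *Ndc1* (r = 0.98), which encodes a nucleoporin, and by *Fads2* (0.95), a fatty acid desaturase that was also the second for *Irx1* (0.89). *Irx1* was closest to *Rgs1* (0.94). *Sst* was closest to *Cyba* (0.90); the second, *Mir770* (0.89), was at 0 in every mouse but FL 5 and KO 5. *Ttr* was closest to *Nsfl1c* (0.96), *Hhex* to *Fubp1* (0.94), *Ppy* to *Sp2* (0.94), *Pyy* to *Proscos* (0.96) and *Ghrl* to *Stap2* (0.94). Of the closest matches of *Irx1*, *Irx2* and *Sst*, *Fads2* fell in KO islets (-0.38 on the log2 scale, limma adjusted p = 0.0180), as *Irx1* did, and *Ndc1* did not pass the test (-0.19, adjusted p = 0.476). *Rgs1* (0.48, adjusted p = 0.0204) and *Cyba* (0.50, adjusted p = 0.00377) rose, while *Irx1* and *Sst* fell.

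Of the 6 other genes listed for α cells, 4 were tested and 1 was called, as lower, which is near the 16.5% of all tested genes. Their median was -0.17 on the log2 scale against -0.06 over all tested genes. *Slc7a2*, a transporter of arginine and lysine, was at 108 to 122 FPKM in FL and fell to 59.0 to 77.5 in KO with no overlap (log2 fold change -0.80, SE 0.074, limma adjusted p = 2.8e-05). The other tested genes of the list did not pass. *Gc* was at -0.21 (limma adjusted p = 0.0641), *Slc38a5* at -0.13 (0.574) and *Smarca1* at 0.043 (0.687).

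On the δ list, 4 of 5 genes were tested and none was called by limma or by the exact permutation test, with a median of -0.05; *Rbp4* alone had an unadjusted limma p of under 0.05. *Rbp4*, the retinol-binding protein carried by transthyretin and abundant in δ cells, was at 358 ± 25.7 and 310.0 ± 34.5 FPKM (-0.21, limma adjusted p = 0.0785), with 4 KO mice below every FL mouse. *Ghsr*, the ghrelin receptor, found on δ cells, was at 2.51 ± 0.411 and 2.24 ± 0.271 FPKM (-0.11, adjusted p = 0.439). The other genes tested were at positive values, *Spock3* at 0.23 (adjusted p = 0.277) and *Ffar4* at 0.015 (adjusted p = 0.873). Of the relatives of these genes, only *Npy* was high enough to be tested, at 18.7 ± 6.66 and 12.4 ± 4.90 FPKM (-0.56, adjusted p = 0.168). *Irx3*, *Irx4*, *Irx5* and *Irx6* had means of at most 0.144 FPKM in either group, and *Cort*, a relative of *Sst*, was listed at 0 in all 10 libraries.

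**Figure D4:**
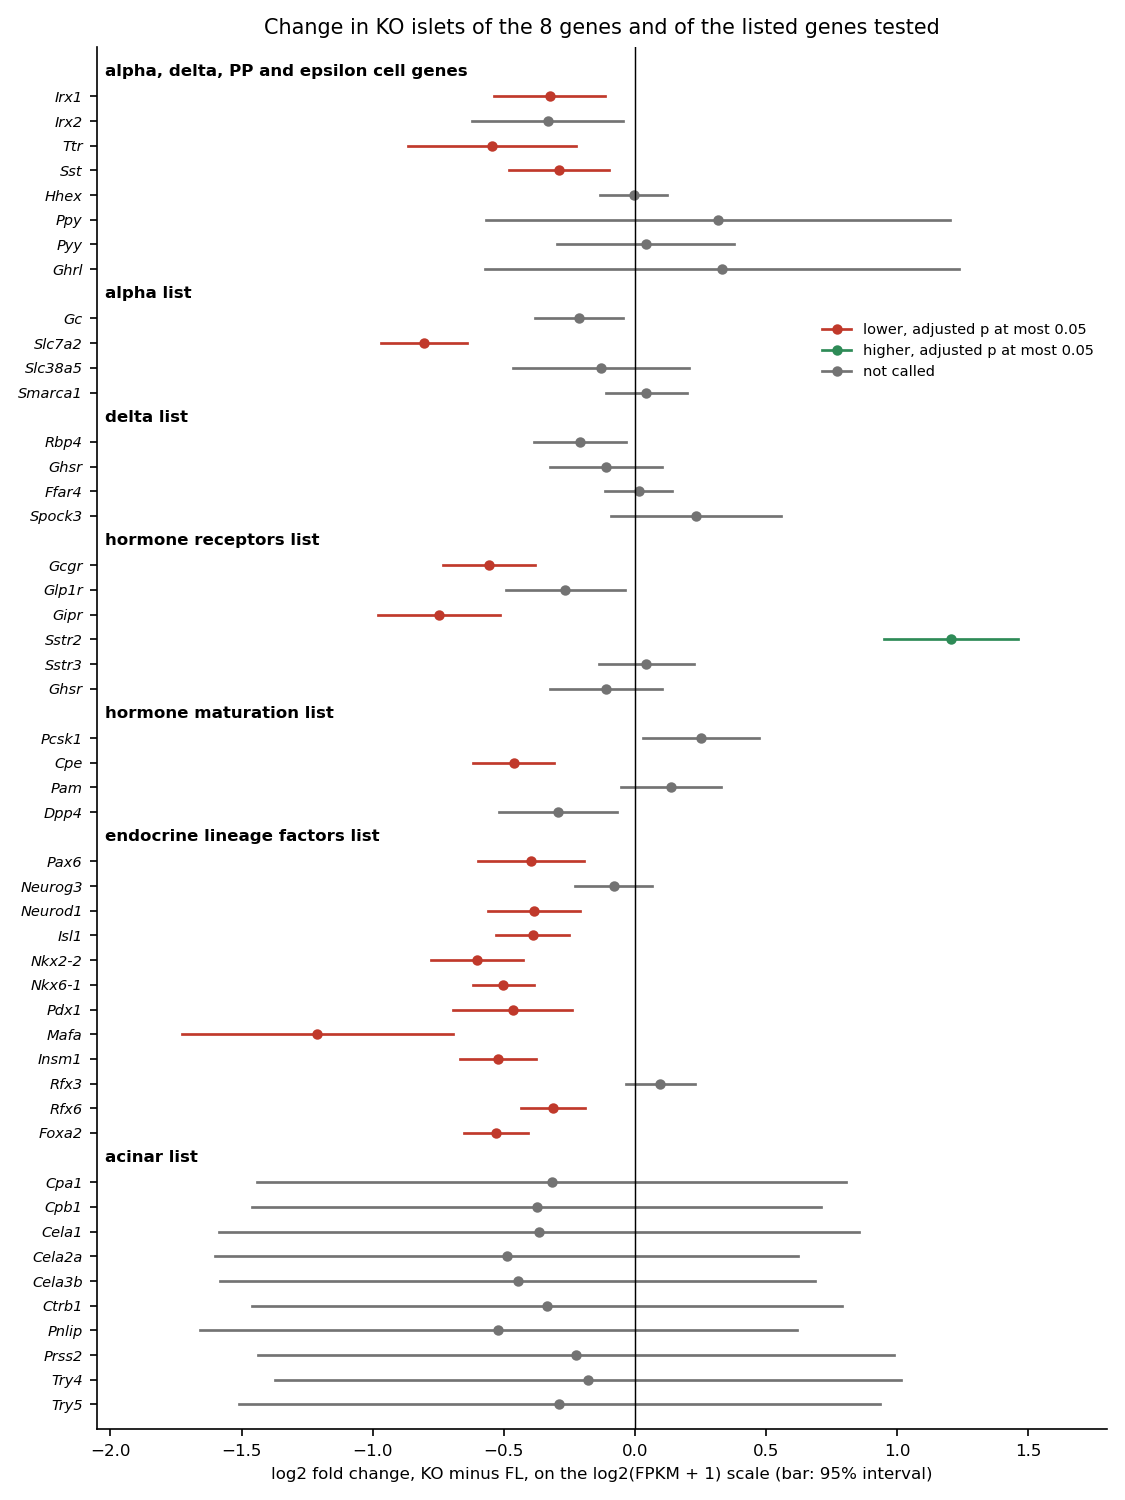
Log2 fold change (x axis, KO minus FL) with its 95% interval for the 8 genes and for the tested genes of 6 lists, in red where called lower and in green where called higher. *Pcsk2*, listed at 0 in every FL mouse, is left out, and the acinar genes have the widest intervals.

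Receptors through which islet cells sense these hormones and related peptides moved in both directions. Of 14 receptor genes, 6 were tested, of which 2 were lower and 1 was higher, where 16.5% and 9.05% of all tested genes were. *Gcgr*, the glucagon receptor, was at 17.9 to 23.2 FPKM in FL and fell to 11.4 to 14.6 in KO (-0.56, SE 0.080, limma adjusted p = 0.000584). *Gipr*, the receptor of the incretin GIP, was at 8.83 to 10.2 FPKM in FL and fell to 4.15 to 6.49 in KO (-0.75, SE 0.11, adjusted p = 0.000563). The groups did not overlap for either gene. *Glp1r*, the receptor of glucagon-like peptide 1, was at 561 ± 57.2 and 468 ± 67.4 FPKM (SD, n = 5; -0.27, adjusted p = 0.0835).

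Of the 5 somatostatin receptors, *Sstr2* and *Sstr3* were tested and *Sstr2* was called, as higher. *Sstr2* was at 1.95, 2.01, 1.27, 1.40 and 1.39 FPKM in FL 1 to 5 and at 4.10, 4.52, 6.14, 4.69 and 5.55 FPKM in KO 1 to 5. All KO values exceeded all FL values, and the log2 fold change was 1.20 (SE 0.12, limma adjusted p = 3.7e-05). *Sstr3*, the most abundant of the 5 somatostatin receptors here, was at 105 ± 8.09 and 108 ± 11.8 FPKM (SD, n = 5; 0.04, 95% interval -0.14 to 0.22, adjusted p = 0.735). *Sstr5*, named after its values were seen, was under the filter at 0.237 ± 0.0644 and 0.0468 ± 0.0323 FPKM. Also under the filter were *Sstr4*, at 0.0186 ± 0.0313 and 0.0993 ± 0.0304 FPKM, and *Sstr1*, at 0.286 ± 0.0637 and 0.375 ± 0.128 FPKM. Receptors of the neuropeptide Y family, which bind pancreatic polypeptide and peptide YY, had means of at most 0.0316 FPKM.

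**Figure D5:**
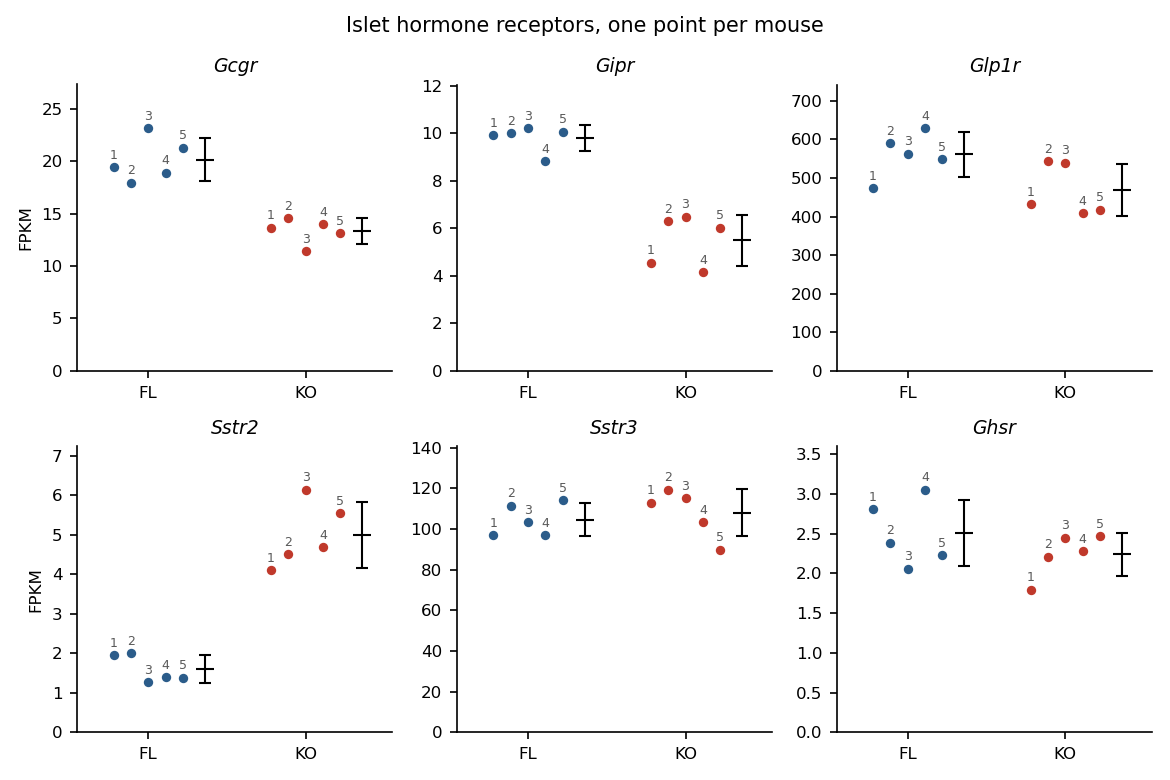
FPKM (y axis, from 0) of 6 hormone receptor genes in each FL (blue) and KO (red) mouse, with mean and SD (n = 5) in black. *Gcgr* and *Gipr* lie lower and *Sstr2* higher in KO with no overlap, and *Sstr3* and *Ghsr* overlap.

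Of 6 genes that process the hormone precursors, 5 were tested, of which 1 was lower (16.5% of all tested genes) and 1 higher (9.05%), the latter being *Pcsk2*. *Cpe*, the carboxypeptidase that trims cleaved prohormones, was at 2504 to 3181 FPKM in FL and fell to 1817 to 2062 in KO (-0.46, SE 0.070, limma adjusted p = 0.000862). *Pcsk2*, the convertase that makes glucagon and cuts prosomatostatin, was listed at 0 in all 5 FL libraries and at 948 to 1171 FPKM in all 5 KO libraries, so that no fold is given and the call cannot be read as a change. *Mboat4*, the acyltransferase that activates ghrelin, was under the filter with a highest value of 0.0883 FPKM.

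Most transcription factors of the endocrine lineages fell. Of 13 on the list, 12 were tested, 10 were lower (16.5% of all tested genes) and none was higher, with a median of -0.43 against -0.06 over all tested genes. *Mafa* had the largest fall at -1.21 (SE 0.23, limma adjusted p = 0.00372), followed by *Nkx2-2* at -0.60, *Foxa2* at -0.53, *Insm1* at -0.52, *Nkx6-1* at -0.50 and *Pdx1* at -0.47, all with no overlap between groups, as in 12.5% of all tested genes. *Mafa* and *Nkx6-1* belong to β cells in the adult mouse, *Pdx1* to β and δ cells, and *Nkx2-2*, *Foxa2* and *Insm1* are used by several islet cell types. *Pax4* was listed at 0 in all 10 libraries. Of the 11 β cell genes, 8 were tested and 6 were lower, with a median of -0.55. This list shares *Mafa*, *Nkx6-1* and *Pdx1* with the lineage factors, and of its other genes that fell *Slc30a8* was at -0.76, *Slc2a2* at -0.70 and *Ucn3* at -0.60.

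Markers of non-endocrine cells also differed between the groups, and their part in the changes of the 8 genes was not tested. Of all tested genes, 9.05% were higher in KO. All 4 stromal genes tested were by limma, with *Col3a1* at 0.87, *Pdgfrb* and *Col1a2* at 0.48 and *Col1a1* at 0.46. *Col1a1* (limma adjusted p = 0.0458, exact permutation p = 0.0238) did not pass the exact permutation test after adjustment over all tested genes. The summed stromal level was 9.99 to 17.8 FPKM in FL and 21.7 to 27.7 in KO. Of the 5 endothelial genes, 3 were higher by limma (*Cdh5* at 0.37, *Pecam1* at 0.35 and *Plvap* at 0.34), with sums of 121 to 139 and 144 to 190 FPKM. *Plvap* (limma adjusted p = 0.0334, exact permutation p = 0.0159) did not pass the exact permutation test after the same adjustment. Of the 4 tested leukocyte genes, 2 were higher by limma (*Cd68* at 0.68 and *Laptm5* at 0.51), with sums of 29.4 to 38.9 and 46.7 to 55.0 FPKM. *Laptm5* (limma adjusted p = 0.0394, exact permutation p = 0.0238) did not pass the exact permutation test after that adjustment either. *Cd68*, with means of 22.8 FPKM in FL and 37.1 in KO, made up most of the leukocyte sums. *Adgre1* (0.20, limma adjusted p = 0.101) and *Cd14* (0.23, 0.332) did not pass. The defining *Ptprc* was under the filter, at 0.784 ± 0.198 and 0.982 ± 0.0895 FPKM. Of 5 tested duct genes, *Krt7* was lower (-0.34) and *Cftr* was called higher, with sums of 605 to 666 and 514 to 655 FPKM. *Krt7*, with means of 451 FPKM in FL and 356 in KO, made up most of these sums. *Krt19*, with means of 30.9 and 29.8 FPKM, did not pass, nor did *Spp1* and *Muc1*. The fall of *Krt7* and the sums are therefore not read as a change of duct cells. *Cftr* was at 0.00986 to 0.0552 FPKM in FL and at 1.67 to 2.53 in KO. It passed the filter only through KO, so that no fold is given and its call is not read as a change of duct cells. None of the 10 tested acinar genes was called by limma or by the exact permutation test, nor was any at an unadjusted p of under 0.05, with a median of -0.35, and the 4 genes of glia and nerve were all under the filter.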

How the data were processed

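RNA-seq was made from 10 islet preparations, 5 FL and 5 KO, with a stranded polyA kit and single-end reads of 75 nt. The authors deposited 1 table of FPKM values, normalised across libraries, with a column per mouse; the submitters' processing notes name STAR 2.5.2a, Cuffnorm 2.2.1 and the builds mm10 and GRCm38, with no role or order. FPKM carry no read totals, so no count model was used. Values were analysed as deposited on the log2(FPKM + 1) scale with limma 3.58.1 (eBayes with a trend, R 4.3.3), without a block, across the 13065 genes whose mean reached 1 FPKM in FL or KO. Benjamini-Hochberg adjustment covered all of them, and calls were made at an adjusted p of at most 0.05. Exact two-sided permutation tests went through every regrouping of the mice into 5 and 5, and Spearman correlations used scipy 1.17.1. The scripts were tested on simulated data.

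Mice were the replicates. The 8 genes and the gene lists were chosen with earlier results of these data known, so that they are no independent support for any pattern. Genes named from the lists were the defining hormones, factors and receptors plus up to 6 called genes per list by size of change; for likeness, the 3 highest Pearson r. Some genes that these rules or lists hold are not reported here, and the counts and medians of the lists leave them out. Positions are of GENCODE M21 (GRCm38) for *Irx1* (13:71957921-71963723, minus), *Irx2* (13:72628820-72634198, plus), *Ttr* (18:20665280-20674321, plus), *Sst* (16:23889573-23890958, minus), *Hhex* (19:37434810-37440731, plus), *Ppy* (11:102099930-102101319, minus), *Pyy* (11:102106676-102107832, minus) and *Ghrl* (6:113716119-113719880, minus), and FPKM refer to their exons.

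Alternatives were other pseudocounts, filters, scalings, variance models, tests, a required change of 1.5-fold, the replicate number as a block and leaving out each mouse. Added after the data were seen were the acinar sum as a covariate, rescaling without the acinar genes, and leaving out FL 4 with KO 5.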

Additional observations from a re-analysis of the deposited data

Results flagged for a closer look

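Some groups of 5 mice held 1 mouse whose gap to the nearest other mouse, as a share of the range of its group, was over the 95% critical value of Dixon's test. They were 5 of the 75 groups checked, where chance gives about 3.8. For *Irx1* it was FL 2 (4.67 FPKM against 5.85 to 6.26 in the other FL mice, a share of 0.742). For *Hhex* it was FL 3 (10.02 against 11.5 to 12.0 FPKM, a share of 0.7497). For *Mboat4* it was KO 5, the mouse with the highest acinar sum, at a level near 0 (0.0883 against 0.0137 to 0.0343 FPKM, a share of 0.725). FL 4 stood apart for *Gipr* (8.83 against 9.91 to 10.2 FPKM, a share of 0.787) and for *Cpe* (3181 against 2504 to 2639 FPKM, a share of 0.800).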

How the results depend on the processing

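*Ttr* stayed lower in all 27 alternatives and was called in 25. Its change of -0.54 missed a required change of 1.5-fold, as did those of *Irx1* (-0.33) and *Sst* (-0.29), and without FL 4 and KO 5 together it was -0.56 (adjusted p = 0.0614). *Irx1* and *Sst* stayed lower in all 27 and were called in 12 each. *Irx1* lost its call without a filter and by the exact permutation test (both -0.33), under median-ratio (-0.27), upper-quartile (-0.27) and quantile (-0.30) scaling, and when rescaled to the same sum with (-0.29) or without (-0.29) the acinar genes. *Sst* lost it in the same settings, at -0.29 for the first 2 and then at -0.23, -0.22, -0.035, -0.25 and -0.25. Leaving out single mice gave -0.39 to -0.28 for *Irx1*, -0.43 to -0.27 for *Irx2*, -0.61 to -0.44 for *Ttr* and -0.36 to -0.25 for *Sst*. *Irx2* was also called with sample weights (-0.37).

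The number of the 8 genes called lower was 1 without a filter, under each of the 4 scalings as well as the rescaling without acinar genes, and by the exact permutation test; it was 0 with 1.5-fold required and 1 to 4 with single mice left out. Over all tested genes, 290 were lower and 349 higher with 1.5-fold required. The cause of these losses was not tested.

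Of the uncalled genes, *Hhex*, *Ppy*, *Pyy* and *Ghrl* changed sign in some settings, and *Irx2* in none of the 27. *Hhex* was at 0.050 under median-ratio, 0.057 under upper-quartile and 0.052 under quantile scaling, 0.036 at the same sum with and without acinar genes, 0.033 with sample weights, 0.0053 with the acinar covariate, 0.0029 without FL 4 and KO 5, and -0.046 to 0.024 without single mice. Without FL 4 and KO 5, *Ppy* was at -0.15, *Pyy* at -0.15 and *Ghrl* at -0.22; with sample weights, *Pyy* was at -0.10 and *Ghrl* at -0.16. Single mice left out gave -0.077 to 0.57 for *Ppy*, -0.060 to 0.15 for *Pyy* and 0.050 to 0.63 for *Ghrl*.

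FL and KO mice of the same number did not deviate together (r from -0.102 to 0.00305), and no FL mouse correlated best with the KO mouse of its number. With the replicate number as a block, 1494 genes were lower and 874 higher, and the same 3 of the 8 genes were called. Depth limits *Irx1* and *Ghrl* most among the 8, and the FPKM as deposited give no exact counting error.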
